A study of Mus musculus with 5 samples.

Results

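IL-9-high ILC2s were the cells of the week 2 ta-non-activated library that carried 100 or more Il9 UMIs per 10000 UMIs of the cell. They numbered 392 of the 1823 cells kept in that library (21.5%, exact binomial 95% interval 19.6 to 23.5) and of the 16530 cells kept in all 5 libraries. A UMI, or unique molecular identifier, marks 1 captured RNA molecule. A cell was kept with 200 or more genes and under 5% mitochondrial counts. The members were compared with 1242 cells of the same library that held under 10 Il9 UMIs per 10000 (Il9-low cells). The 189 cells between these limits are given as the middle class. The members were thus chosen by their measured Il9 counts, which are given as a description only.

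Each library held lung cells pooled from 5 wild-type female C57BL/6 mice 4 to 8 weeks old, sorted as CD45+ lymphocytes without lineage markers but with ST2, CD127 and Thy1.2. The naïve library came from mice without a tumour. The ta-non-activated libraries came from mice that had carried a subcutaneous TC1 lung tumour graft in the flank for 2 or 3 weeks, and these cells were sequenced fresh. The ta-activated libraries came from such mice at the same 2 times, with a week of culture in rhIL-2, rmIL-33 and TSLP before sequencing. There was 1 library per condition, so mice cannot be told apart from one another, week cannot be told apart from library, and no difference below carries a p-value. The IL-9-high cells were taken as they came from the lung, and what they would secrete was not measured.

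ILC2s are innate lymphocytes without antigen receptors that answer the epithelial alarmins IL-33, TSLP and IL-25 with type 2 cytokines. IL-9 is one of these: it is made in short bursts by activated ILC2s and Th9 cells, acts on mast cells, epithelium and ILC2s themselves, and in T cells its gene is known to be driven by STAT5, STAT6, IRF4, BATF and PU.1. IL-13 and IL-5, the other signature products of ILC2s, act on airway epithelium and eosinophils.

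The members held 94.4% of all Il9 UMIs of their library. A median member carried 355 Il9 UMIs per 10000 (quartiles 191 and 573), and in the highest cell Il9 made up 14.7% of all UMIs. Of the Il9-low cells, 751 (60.5%) had no Il9 UMI. The limit of 100 cut a continuous range: 30 cells lay between 80 and 100 and 26 between 100 and 120. The 3 cells just outside it held 99.6, 99.6 and 99.9 per 10000, and the 3 just inside held 100.4, 101.5 and 102.2.

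Cells past the rule were nearly all in that library. None of the 6389 naïve cells passed it, which allows a share of up to 0.0470% by a limit of 3 counts (exact binomial limit 0.0577%). None of the 1601 cells of the week 3 ta-non-activated library did (0.187% by 3 counts, exact limit 0.230%). That library also differed from week 2 fresh in lineage markers, with Cd3g, a T cell receptor complex gene, at 1819 CPM against 41.1 and Gata3, the ILC2 regulator, at 189 CPM against 341 (UMIs per 1000000 with Il9 left out of the total), and the part of its cell makeup in this 0 was not tested. After culture 3 of 2895 week 2 cells and 12 of 3822 week 3 cells passed. Over whole libraries, Il9 stood at 12576 UMIs per 1000000 (CPM, here with Il9 in the total) at week 2 fresh, at 115 and 342 CPM in the week 2 and week 3 ta-activated libraries, at 0.0926 CPM (3 UMIs in 1 cell) in the naïve library and at 0 at week 3 fresh. Median depth was 16090 UMIs a cell at week 2 fresh but 4517 in the naïve and 4396 in the week 3 fresh library, and 13636 and 12296.5 in the week 2 and week 3 ta-activated libraries.

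Depth also separated the classes within the library, and every comparison below carries that difference. Members had a median of 22596.5 UMIs and 4034.5 genes, middle cells 19570 UMIs, and Il9-low cells 13734.5 UMIs and 3188 genes. With the kept cells split by depth into 4 groups of about equal size, the share of members was 5.91%, 13.6%, 24.0% and 42.5% from the shallowest to the deepest. Mitochondrial shares were 1.54% in members and 1.75% in Il9-low cells. The part of depth in the results was not tested. The ratios of genes, the lists and the cycling shares were computed again among cells with 8000 to 24000 UMIs and in 5 depth strata. A gap in depth was left in both: the medians were 17042.5 UMIs in members and 14219 in Il9-low cells of that range, 12122 and 9671 in the shallowest stratum, and 39709 and 38172 in the deepest. The Il9 bins, the Il13 shares per cell and the comparison among Il13-high cells were not. Of the members' barcodes, 1 also occurred in the naïve, 1 in the week 2 ta-activated and 2 in the week 3 ta-activated library. Doublets were not removed, since Scrublet called 1 of 1823 cells, and 10 members and 50 Il9-low cells were among the 70 highest scores.

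The members were checked against ILC2 markers first, and 12 of 14 could be compared with Il9-low cells, with a median ratio of 0.827. Gata3, the master regulator of type 2 lymphocytes, stood at 321 CPM in members and 360 in Il9-low cells, and Il1rl1, which encodes ST2, at 55.8 and 56.7. Rora was at 144 and 175 CPM, Thy1 at 40.4 and 48.6, and Il2ra at 373 and 286. Lower in members by over a fold of 1.5 were Il7r, which encodes the sort marker CD127, at 130 and 197 CPM (ratio 0.660), and Id2 at 354 and 625 (0.566). The 14 ILC2 markers summed to 12313 CPM in members and 12666 in Il9-low cells, most of it Il13. For mast cells and basophils, which can also make IL-9, 9 of 12 markers, among them Cpa3, Fcer1a and Ms4a2, had no UMI in members, and the sum of 58.8 CPM (Il9-low cells 91.5) was mostly Cyp11a1 and Kit. T cell markers summed to 284 CPM against 429, mostly Trbc2. Cd3g, a chain of the T cell receptor complex, was among the 36 lower genes at 22.9 and 52.7 CPM (ratio 0.435), with a UMI in 79 of 392 members and 307 of 1242 Il9-low cells. In the depth strata, none of the 4 T cell markers compared was past a fold of 2 (median ratio 0.667). Among cells with 8000 to 24000 UMIs, 1 of the 4 was lower past it (0.658). Cd3e stood at 4 UMIs and Trac at 1 UMI in all members, and 3 of the 12 markers were at 0. Myeloid markers summed to 198 and 222 CPM, nearly all Cst3, with 9 of 12 at 0 in members. NK or ILC1 markers (8.19 and 7.20 CPM, highest Xcl1), B cell markers (18.2 and 11.7, Igkc), epithelial markers (7.27 and 29.7, Epcam), endothelial markers (28.1 and 23.3, Pecam1) and erythroid markers (2.25 and 4.58, Hba-a1) were low in both classes.

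Il9 lies on chromosome 13 of GRCm38, at chr13:56479277-56482246 on the minus strand, and has 5 exons over 2970 bases. Among the genes with a mean of 20 CPM or more in the classes, the one with the highest ratio was its neighbour Fbxl21, an F-box protein gene known for its role in the circadian clock, at chr13:56522472-56537898 on the plus strand. It starts 40225 bases away on the 5′ side of Il9, so the pair face away from each other. Both promoters are shown, since Fbxl21 had the highest ratio of the genes compared. They are RefSeq sequences of GRCm38.p6, from 250 bases before to 50 after the start of the gene in RefSeq, on the strand of the gene. For Il9 that start is base 56482257, 11 bases upstream of the GENCODE start given above, and for Fbxl21 both annotations give the same base.

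Il9 (chr13:56482208-56482507, minus strand): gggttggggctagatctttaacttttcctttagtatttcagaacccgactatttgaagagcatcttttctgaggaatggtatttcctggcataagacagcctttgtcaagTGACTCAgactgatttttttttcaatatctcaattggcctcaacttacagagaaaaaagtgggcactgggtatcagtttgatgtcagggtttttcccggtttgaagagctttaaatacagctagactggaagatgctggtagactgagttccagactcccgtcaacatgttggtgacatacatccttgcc
Fbxl21 (chr13:56522222-56522521, plus strand): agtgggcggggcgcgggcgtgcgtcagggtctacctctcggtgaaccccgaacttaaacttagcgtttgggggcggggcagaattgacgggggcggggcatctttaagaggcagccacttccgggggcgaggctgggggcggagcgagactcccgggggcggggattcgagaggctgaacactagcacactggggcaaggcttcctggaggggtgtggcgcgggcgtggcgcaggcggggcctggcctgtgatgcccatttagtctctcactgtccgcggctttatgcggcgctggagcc

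Capitals mark the 1 match found to the letters of an AP-1 site (TGANTCA, either strand), 140 to 134 bases before the RefSeq start of Il9. Of 32851 promoters of this length, 7.81% hold such a match. The letters searched for STAT (TTCNNNGAA, in 8.30% of promoters), IRF (GAAA, any 2 bases and GAAA again, in 3.44%) and GATA factors (AGATAA, in 11.2%) had no match in the Il9 window, and none of the 4 had one in the Fbxl21 window. Other spacings of TTC and GAA were not searched. The Il9 window shown does hold TTC and GAA with 4 bases between them (ttctgaggaa), so the lack of a match covers the spacing searched alone. The share of promoters with the wider spacing was not counted.

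Fbxl21 stood at 60.8 CPM in members, 19.6 in middle cells and 1.55 in Il9-low cells, a ratio of 39.3 between members and Il9-low cells (95% interval 27.1 to 59.2, counting error only). A CPM here is a gene's UMIs per 1000000 UMIs summed over the cells of a class, with Il9 left out of the total. The transcript was spread over cells: 239 of 392 members had a UMI of it, against 49 of 189 middle and 27 of 1242 Il9-low cells, and the 10 members with most held 15.7% of its UMIs. The ratio lay between 35.2 and 46.8 in the 14 alternative settings, and was 44.1 among cells with 8000 to 24000 UMIs. It was chosen for description after its values were seen, since its mean level of the classes was below the 50 CPM of the naming rule.

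Of the other neighbours of Il9, only H2afy, which encodes a macroH2A histone, passed the level compared, at 272 and 247 CPM (ratio 1.10). Lect2, 60217 bases away on the same side, had 19 UMIs in members and 2 in Il9-low cells, and Tgfbi, 127276 bases away, had 14 and 0. Smad5, a transducer of BMP signals 220763 bases away, was at 12.1 and 7.52 CPM (ratio 1.61, interval 1.25 to 2.07). On the 3′ side, Slc25a48, whose end lies 5037 bases from Il9, had 1 UMI in each class. H2afy lies on that side too. Of 13 protein-coding genes within 500 kb, Il9 included, these 6 others alone had a UMI in either class. Fbxl21 was not tied to Il9 in all libraries: the naïve library held 1292 Fbxl21 UMIs (39.9 CPM) beside its 3 Il9 UMIs, and the week 3 ta-non-activated library 47 UMIs beside none.

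Past a mean of 20 CPM of the classes, 4863 genes could be compared. At a fold of 2, 20 of them (0.411%) were higher in members and 36 (0.74%) lower. At a fold of 1.5 the shares were 2.12% (103 genes) and 3.15% (153 genes), and the median ratio of all 4863 was 1.03. The floor can admit a gene through the class where it is high, and the counts and shares rest on it. Fbxl21 passed it at 1.55 CPM in Il9-low cells, and the lower gene Col18a1 at 10.7 CPM in members. The ratios of the 20 higher genes ran from 2.05 to 39.3 and those of the 36 lower genes from 0.241 to 0.491. Direction held among cells with 8000 to 24000 UMIs for all 20 higher and all 36 lower genes, of which 15 and 25 stayed past a fold of 2. Of all genes compared, 0.293% were higher and 0.982% lower by that fold in that range, and 0.413% and 0.867% in the depth strata.

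**Figure D1:**
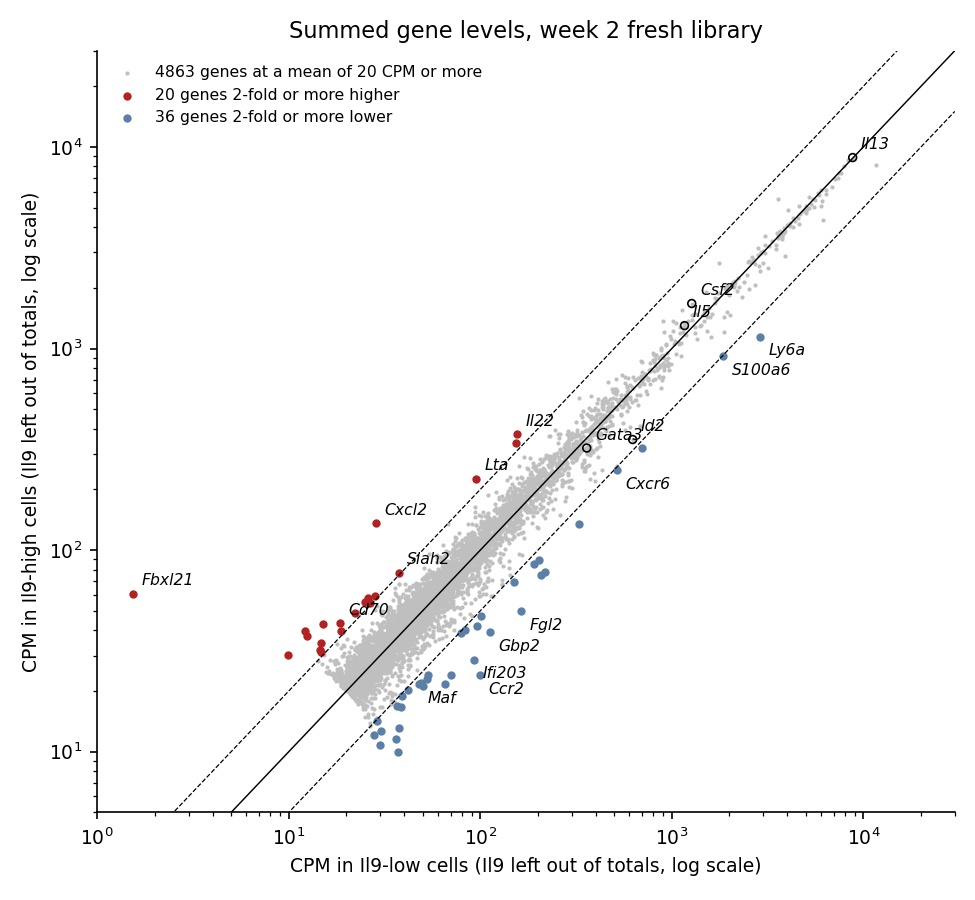
Each point is 1 of 4863 genes, at its level in Il9-low cells (x) and in IL-9-high cells (y), both in CPM without Il9 on log scales; the solid line marks equal levels, the dashed lines a fold of 2, and coloured points the 20 higher and 36 lower genes. Fbxl21 stands far to the left of the other genes at 1.55 against 60.8 CPM, while Il13, Il5 and Gata3 lie near the line of equal levels.

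The type 2 cytokines did not separate the classes. Il13 stood at 8857 CPM in members, 10019 in middle cells and 8796 in Il9-low cells (ratio 1.01, interval 0.999 to 1.02). Il5, the eosinophil growth factor, stood at 1299, 1428 and 1165 CPM (ratio 1.12). Il4 was below the level needed for comparison, at 10.5 and 8.48 CPM. Of the 3 cytokines of this list, 2 were compared and none was past a fold of 2.

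Cell by cell, Il13 was more evenly held among the members. Their median was 58.0 Il13 UMIs per 10000 (10% of members below 10.1, 10% above 203), against 40.0 in Il9-low cells (10% below 1.59). Under 10 per 10000 lay 39 members (9.95%) and 315 Il9-low cells (25.4%). With the kept cells split by Il13 into 4 groups of equal size, the share of members was 12.9% in the lowest group and 24.1%, 27.0% and 21.9% in the next 3. Over the 1823 cells, the rank correlation of Il9 with Il13 was 0.148, and that of Il9 with depth was 0.416; these points share 1 library and one denominator. In 367 members (93.6%), Il9 UMIs outnumbered Il13 UMIs.

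Among 24 other cytokines, 8 could be compared. The median ratio was 1.04, near the 1.03 of all genes, and 1 was higher past a fold of 2, against 0.411% of all genes. This was Il22, at 376 CPM in members, 127 in middle cells and 155 in Il9-low cells (ratio 2.42, interval 2.31 to 2.54). IL-22 acts on epithelium and is more often a product of ILC3s. It came from few cells: 16 of 392 members (4.08%, interval 2.35 to 6.54) and 20 of 1242 Il9-low cells (1.61%) held 10 or more Il22 UMIs per 10000, and the 10 highest members carried 85.3% of the members' Il22 UMIs. The ratio was 1.15 among cells with 8000 to 24000 UMIs and 1.84 in the depth strata. Csf2, which encodes GM-CSF, was broad and nearer to even, at 1673 and 1271 CPM (ratio 1.32). Ebi3, a chain of IL-27 and IL-35, was at 52.8 and 29.1 CPM (ratio 1.82), while Osm (67.9 and 105 CPM) and Il6 (69.1 and 94.8) were lower in members by less than a fold of 2.

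The TNF family ligands gave 3 of the 20 higher genes, which is 3 of the 8 ligands compared against 0.411% of all genes. Lta, which encodes lymphotoxin alpha, stood at 226 CPM in members, 164 in middle cells and 95.1 in Il9-low cells (ratio 2.38, interval 2.23 to 2.53), and 306 of 392 members against 557 of 1242 Il9-low cells had a UMI of it. Tnfsf8, the ligand of CD30, stood at 55.2, 45.5 and 25 CPM (ratio 2.21). Cd70, the ligand of the costimulatory receptor CD27, stood at 43.4, 34.1 and 18.6 CPM (ratio 2.34). The ratios of these 3 genes stayed between 2.05 and 2.59 in the 14 alternative settings. Tnf was at 108 and 76.9 CPM (ratio 1.40). Ltb, the membrane anchor of lymphotoxin, went the other way at 47.0 and 90.8 CPM (ratio 0.517). The 8 ligands compared, of 14, had a median ratio of 1.06.

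Of 18 chemokines, 4 could be compared. The neutrophil attractant Cxcl2 stood at 136 CPM in members and 28.6 in Il9-low cells (ratio 4.77), yet 6 members and 9 Il9-low cells held 10 or more per 10000, and 10 members carried 89.6% of the members' Cxcl2 UMIs. Its ratio was 1.36 among cells with 8000 to 24000 UMIs. Its neighbour in function Cxcl3 was at 106 and 63.9 CPM (ratio 1.66) but at a ratio of 0.740 in that depth range. Ccl5, a T cell attractant, was at 34.8 and 52.5 CPM (ratio 0.663), and Cxcl10 at 38.3 and 41.1 (0.931). Penk and Pth, which encode the precursors of enkephalins and parathyroid hormone, had ratios of 3.26 and 3.02, also from a handful of cells: 5 members high in Penk and 2 high in Pth, whose top 10 cells held 99.7% and 98.1% of the members' UMIs. Penk had a ratio of 0.510 with an Il9 limit of 200, and Pth one of 11.4 among cells with 8000 to 24000 UMIs. Both were chosen after their values were seen.

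Of 28 transcription factors linked to IL-9 in T cells, 15 were compared, with a median ratio of 1.03. Within a fold of 1.5 lay 11 of them, as did 4607 of all 4863 genes. By that fold 3 were higher and 1 lower, against 2.12% and 3.15% of all genes. Past a fold of 2, 1 was higher, against 0.411%. Stat5a, which carries the IL-2, IL-7 and TSLP signal to the nucleus, was past a fold of 2, at 57.6 CPM in members, 54.6 in middle cells and 26.1 in Il9-low cells (ratio 2.21, interval 1.95 to 2.50). A Stat5a UMI was seen in 248 of 392 members and 330 of 1242 Il9-low cells, and the ratio was 2.43 among cells with 8000 to 24000 UMIs. Its paralogue Stat5b was at 28.4 and 17.7 CPM (ratio 1.61) and Irf4 at 67.6 and 37.7 (ratio 1.79, interval 1.61 to 2.00). Batf, at 278 and 240 CPM, had a ratio of 1.16, and Spi1, which encodes PU.1, had no UMI in either class. Irf1, an interferon-induced factor, was at 59.2 and 117 CPM (ratio 0.507). Among cells with 8000 to 24000 UMIs, 1 of 15 factors was higher and 1 lower past a fold of 2, against 0.293% and 0.982% of all genes.

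The factors of the ILC2 lineage leaned the other way. The 13 compared, of 20, had a median ratio of 0.728, below the 1.03 of all genes, with none higher by a fold of 1.5 and 4 lower by that fold, against 2.12% and 3.15% of all genes. Maf was lower past a fold of 2, at 21.6 CPM in members, 33.2 in middle cells and 47.8 in Il9-low cells (ratio 0.452, interval 0.387 to 0.526). Id2, the inhibitor of E proteins that all ILCs need, stood at 354, 467 and 625 CPM (ratio 0.566). Ets1 and Ikzf3 had ratios of 0.659 each. Gata3 (0.893) and Rora (0.822) were closer to even.

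The lists around cytokine signalling and secretion held no gene past a fold of 2. None of 12 NF-kB factors and inhibitors compared (median ratio 1.04), 9 immediate early and AP-1 genes (1.04), 27 genes of endoplasmic reticulum secretion and the unfolded protein response (1.05), 14 glycolysis genes (0.999), 8 SOCS genes and inhibitory receptors (0.860), 3 cytokine mRNA decay factors (1.13) or the 1 MAP kinase feedback gene (0.878) was past a fold of 2. Within the immediate early list, Myc, a driver of cell growth, was at 164 and 94.3 CPM (ratio 1.74) and Atf3 at 33.6 and 19.5 (ratio 1.72). Mir155hg, the host transcript of miR-155, stood at 341 CPM in members, 291 in middle cells and 154 in Il9-low cells (ratio 2.22), with a UMI in 348 of 392 members and 625 of 1242 Il9-low cells. The ubiquitin ligase gene Siah2 was at 77.4 and 37.6 CPM (ratio 2.06), Pmepa1, an inhibitor of TGF-beta signals, at 135 and 68.2 (1.99), and the cyclin gene Ccnd2 at 568 and 329 (1.73). The other 5 of the 15 highest ratios at a mean of 50 CPM or more were below a fold of 2. They were Ninj1, which encodes a cell surface protein of adhesion and membrane rupture, at 64.6 and 35.9 CPM (ratio 1.80), the ubiquitin ligase gene Rnf19b at 67.9 and 37.9 (1.79, but 1.45 among cells with 8000 to 24000 UMIs), the ribosomal oxygenase gene Riox2 at 95.9 and 54.2 (1.77), the Golgi mannosidase gene Man1a at 188 and 109 (1.72) and Glb1, which encodes the lysosomal beta-galactosidase, at 68.0 and 40.5 (1.68).

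Some of the genes named encode receptors for migration, which were not among the lists counted. Ccr2, the receptor for CCL2, had the lowest ratio of all genes compared, at 24.0 CPM in members, 53.2 in middle cells and 99.9 in Il9-low cells (ratio 0.241, interval 0.209 to 0.276). A Ccr2 UMI was found in 78 of 392 members and 555 of 1242 Il9-low cells, although members were the deeper cells. Cxcr6, the receptor for CXCL16, stood at 250, 362 and 517 CPM (ratio 0.484), and Itgb7, a gut-homing integrin chain, at 47.3, 66.5 and 101 (ratio 0.467). In contrast Ccr4, the receptor for CCL17 and CCL22, stood at 43.2, 32.2 and 15.1 CPM (ratio 2.85, interval 2.45 to 3.33), with a UMI in 226 of 392 members and 194 of 1242 Il9-low cells. Its ratio lay between 2.74 and 3.27 in the alternative settings. Ccr4 was chosen after its values were seen.

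Among 26 cytokine and alarmin receptors, 16 were compared and 1 was lower past a fold of 2, against 0.74% of all genes. It was Cysltr1, which binds cysteinyl leukotrienes, at 85.8 and 190 CPM (ratio 0.450). Among cells with 8000 to 24000 UMIs, none of 15 receptors compared was past that fold, and Cysltr1 had a ratio of 0.510. Il7r was at 130 and 197 CPM (ratio 0.660), Il2ra at 373 and 286 (1.30) and Il10ra at 58.3 and 37.1 (1.57). The receptor of IL-9 itself, Il9r, was below the level compared, at 9.21 and 18.3 CPM. Klrg1, a maturation marker of ILC2s, was also below it, with 46 UMIs in members and 268 in Il9-low cells.

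Among the remaining lower genes, Ly6a, which encodes Sca-1, stood at 1146 CPM in members, 1744 in middle cells and 2892 in Il9-low cells (ratio 0.396). It was at 10 or more UMIs per 10000 in 166 members (42.3%) and 986 Il9-low cells (79.4%). Fgl2 was at 49.7 and 163 CPM (ratio 0.304), Lgals3, which encodes galectin-3, at 75.5 and 208 (0.364), S100a6 at 914 and 1860 (0.491), Ramp1, a chain of the CGRP receptor, at 42.3 and 96.2 (0.439), and Btg1, an antiproliferative gene, at 134 and 329 (0.409). Pxdc1 was at 77.8 and 217 CPM (ratio 0.359), the small GTPase gene Arl4c at 89.4 and 203 (0.441), and Ctla2a, which encodes an inhibitor of cathepsins, at 321 and 701 (0.458). Among cells with 8000 to 24000 UMIs, Arl4c and Ctla2a had ratios of 0.515 and 0.512, short of a fold of 2. Genes known to be induced by interferon were Ifi203 at 28.7 and 92.7 CPM (ratio 0.309), the GTPases Ifi47 (69.4 and 149.9 CPM, 0.463, but 0.503 in that depth range), Gbp2 (39.2 and 113 CPM, 0.347), Gbp7 (11.6 and 36.4, 0.318) and Irgm1 (13.1 and 37.9, 0.346), the nucleic acid sensors Zbp1 (24.0 and 70.3, 0.342) and Ddx58 (12.1 and 28.0, 0.431), and Samhd1 (24.0 and 53.6, 0.448). Of these, Gbp7, Irgm1, Zbp1, Ddx58 and Samhd1 were chosen after their values were seen, and interferon-induced genes were not among the lists counted. Not every such gene was lower by this much: the interferon-induced chemokine gene Cxcl10 had a ratio of 0.931.

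**Figure D2:**
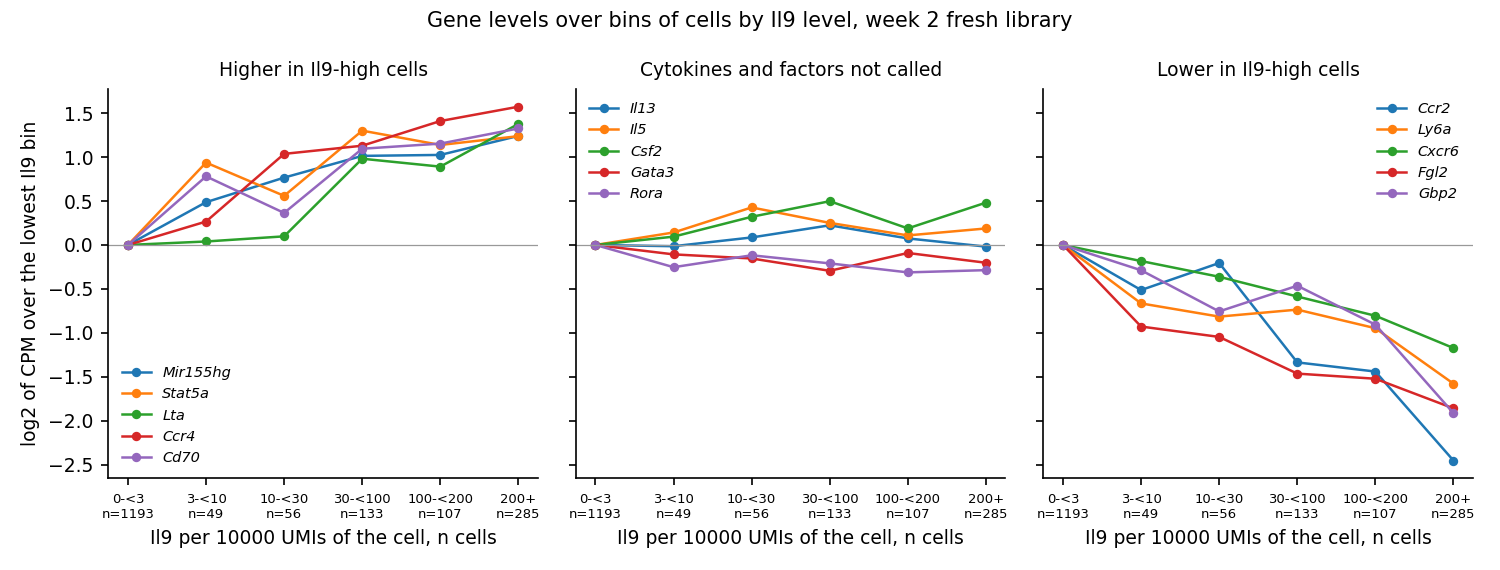
Level of 15 genes in 6 bins of cells by Il9 UMIs per 10000 (x, with the number of cells), as log2 of CPM over the lowest bin (y), for 5 genes higher in members, 5 cytokines and factors not past a fold of 2, and 5 genes lower in members. The genes of the left panel stand above 0 in each bin past the lowest, Lta only slightly so below 30 (94.9, 97.6 and 102 CPM). Those of the middle panel stay near 0, and Ccr2 goes from 101 CPM in the lowest bin to 18.5 in the highest.

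The class is a range of a continuous level, and the genes differed in how they followed it. Over cells at 0 to 3, 3 to 10, 10 to 30, 30 to 100, 100 to 200 and 200 or more Il9 UMIs per 10000, Fbxl21 stood at 1.29, 6.36, 16.2, 20.9, 32.8 and 72.4 CPM, higher in each bin than in the one before. Stat5a stood at 24.9, 47.7, 36.7, 61.4, 54.8 and 58.8 CPM, most of its difference lying below the member limit. Ccr2 stood at 101, 71.0, 87.9, 40.2, 37.4 and 18.5 CPM. Il22 stood at 157, 120, 128, 126, 279 and 416 CPM, with its higher levels in both bins of members. Il13 went from 8801 in the lowest to 10276 in the fourth and 8688 in the highest bin. The 6 bins held 1193, 49, 56, 133, 107 and 285 cells, with median depths of 13603, 19316, 19162.5, 19608, 24216 and 22312 UMIs.

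To set Il9 apart from type 2 cytokine production in general, the comparison was repeated among cells with 100 or more Il13 UMIs per 10000, which were 129 members (32.9%) and 361 Il9-low cells (29.1%), with median depths of 22927 and 15073 UMIs. Of 4724 genes, 15 were higher (0.318%) and 30 lower (0.635%) by a fold of 2, and 10 and 20 of these were also past it among all cells. Fbxl21 kept a ratio of 37.1, Cd70 of 2.47, Ccr4 of 2.55, Lta of 2.08, Ccr2 of 0.236, Ly6a of 0.403, Fgl2 of 0.399 and Gbp2 of 0.404. Short of a fold of 2 there were Tnfsf8 (1.75), Hes1 (1.98), Penk (1.90), Maf (0.627) and Cxcr6 (0.518), and Pth turned to a ratio of 0.0540. Stat5a had a ratio of 1.70, Mir155hg of 1.76 and Irf4 of 1.55 there, with higher levels in the Il9-low cells of this group (Stat5a 39.2 CPM, against 26.1 in all Il9-low cells). Areg, the EGF family ligand amphiregulin, was at 413 and 693 CPM (ratio 0.596) in these cells, and at 308 and 382 CPM (0.807) among all cells.

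Cell cycle genes gave different values when cells of closer depth were compared. In sums over all cells, none of 34 S phase genes (median ratio 1.09) and 20 G2/M genes (0.941) compared was past a fold of 2. In the depth strata, 8 of 21 G2/M genes (median ratio 0.698), 1 of 33 S phase genes (0.837) and 8 of 9 genes of the cycling score (0.381, against 0.862 over all cells) were lower past it, against 0.867% of all genes. Among cells with 8000 to 24000 UMIs, 2 of 14 G2/M genes (0.898), 1 of 30 S phase genes (0.797) and 3 of 4 genes of the cycling score (0.245) were, against 0.982% of all genes. A cell was called cycling with a UMI of 2 or more of 12 cycling genes after thinning to 5000 UMIs without Il9. That gave 54 of 392 members (13.8%, interval 10.5 to 17.6) and 158 of 1167 Il9-low cells (13.5%, interval 11.6 to 15.6), with 75 Il9-low cells too shallow. Without thinning the shares were 42.3% and 27.1%.

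At closer depth the share of cycling cells was lower in members. Cells were split by UMIs without Il9 into 5 strata with about equal numbers of members, and from the shallowest to the deepest stratum 1.27%, 2.56%, 7.69%, 20.5% and 36.7% of members were cycling, against 4.45%, 10.6%, 21.8%, 37.3% and 62.2% of Il9-low cells. Members were lower in each of the 5 strata, with intervals that overlapped in each. Among cells with 8000 to 24000 UMIs, 5 of 214 members (2.34%, interval 0.763 to 5.37) and 88 of 858 Il9-low cells (10.3%, interval 8.31 to 12.5) were cycling. Mki67, the standard proliferation marker, had a ratio of 0.782 over all cells and of 0.0700 in that range, and Top2a of 0.891 and 0.268. The share called cycling was higher in each deeper stratum in both classes, and its part in the depth of the members was not tested.

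**Figure D3:**
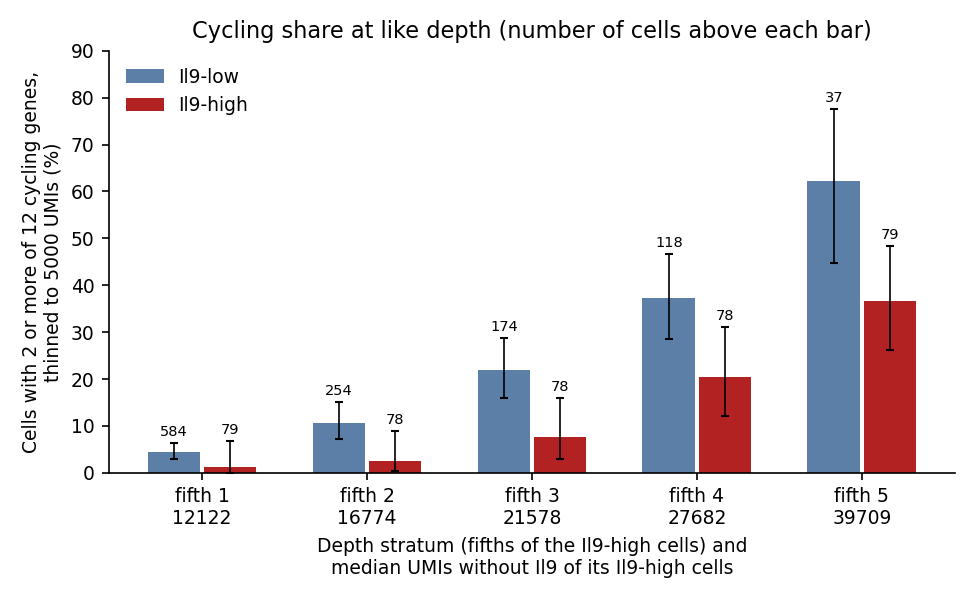
Cycling cells as percent of IL-9-high and Il9-low cells (y, bars with exact 95% intervals and the number of cells above) in 5 strata of depth without Il9 (x, from shallow to deep). Members lie below Il9-low cells in each stratum, from 1.27% against 4.45% to 36.7% against 62.2%.

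The cultured libraries, which played no part in choosing the members, had few cells to compare: 16 at week 2 and 34 at week 3 with 10 or more Il9 UMIs per 10000, against 2879 and 3788 below it. These Il9-positive cells were also deep, with medians of 42492 and 50976 UMIs against 13570 and 12234. The test planned over libraries needed 20 such cells in 2 libraries and was not run.

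Genes were counted there at 20 CPM or more over all kept cells of both cultured libraries, a floor that does not depend on the few Il9-positive cells. Of the 20 genes higher in members, 6 passed it: 5 had ratios above 1 in both libraries, where 30.6% of all genes did, and 1, Mir155hg, was past a fold of 2 in both, against 0.527%. With cells of 25000 or more UMIs alone (13 and 25 Il9-positive cells), 8 passed it, 6 were above 1 in both (26.7% of all genes), and 1, Stat5a, was past a fold of 2 (0.162%). The other 14 and 12 genes did not reach the floor and are not counted. Of the genes named next, Stat5a and Cd70 reached it among the deep cells alone, and Ccr4, Fbxl21 and Cxcl2 in neither set. Ratios of genes below the floor rest on the few Il9-positive cells and are given as a description only.

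Stat5a had ratios of 4.34 at week 2 and 8.20 at week 3, and of 3.47 and 5.53 among the deep cells. Mir155hg had ratios of 2.03 and 4.36, and of 1.60 and 2.79 among the deep cells. Cd70 had ratios of 3.18 and 7.51, and of 1.64 and 4.03 among the deep cells, so that neither Mir155hg nor Cd70 stayed past a fold of 2 at week 2. Lta went from 2.42 and 1.44 to 1.36 and 0.957. Ccr4 was at 29.5 and 8.16 CPM at week 2 and at 57.5 and 8.61 CPM at week 3. Fbxl21 had 2 and 6 UMIs in the Il9-positive cells and 15 and 22 in the Il9-low cells. Its ratios were 10.1 (interval 1.12 to 43.4) and 9.32 (3.09 to 23.7), and 14.7 and 5.22 among the deep cells. Il22 had no UMI in those of week 2 but 2674 CPM in those of week 3 (Il9-low cells 64.0), and Cxcl2 had 370 CPM at week 2 (Il9-low cells 23.5) and no UMI at week 3, so neither held in both.

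Of the 36 lower genes, 34 passed the floor: 27 had ratios below 1 in both libraries, where 34.1% of all genes did, and 6 were past a fold of 2 in both, against 1.5%. Among the deep cells, 33 passed it, 24 were below 1 in both (30.4%) and 1 was past a fold of 2 in both (0.505%). Ccr2 had ratios of 0.50 and 0.206, and of 0.656 and 0.375 among the deep cells. Ifi203 had ratios of 0.202 and 0.441, and of 0.391 and 0.594 among the deep cells. Cxcr6 had ratios of 0.726 and 0.259, and of 0.894 and 0.330 among the deep cells. Others did not stay below 1 in both at that depth. Gbp2 went from 0.656 and 0.668 to 1.04 and 0.995 among the deep cells, and Ly6a from 0.850 and 0.411 to 1.04 and 0.505.

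**Figure D4:**
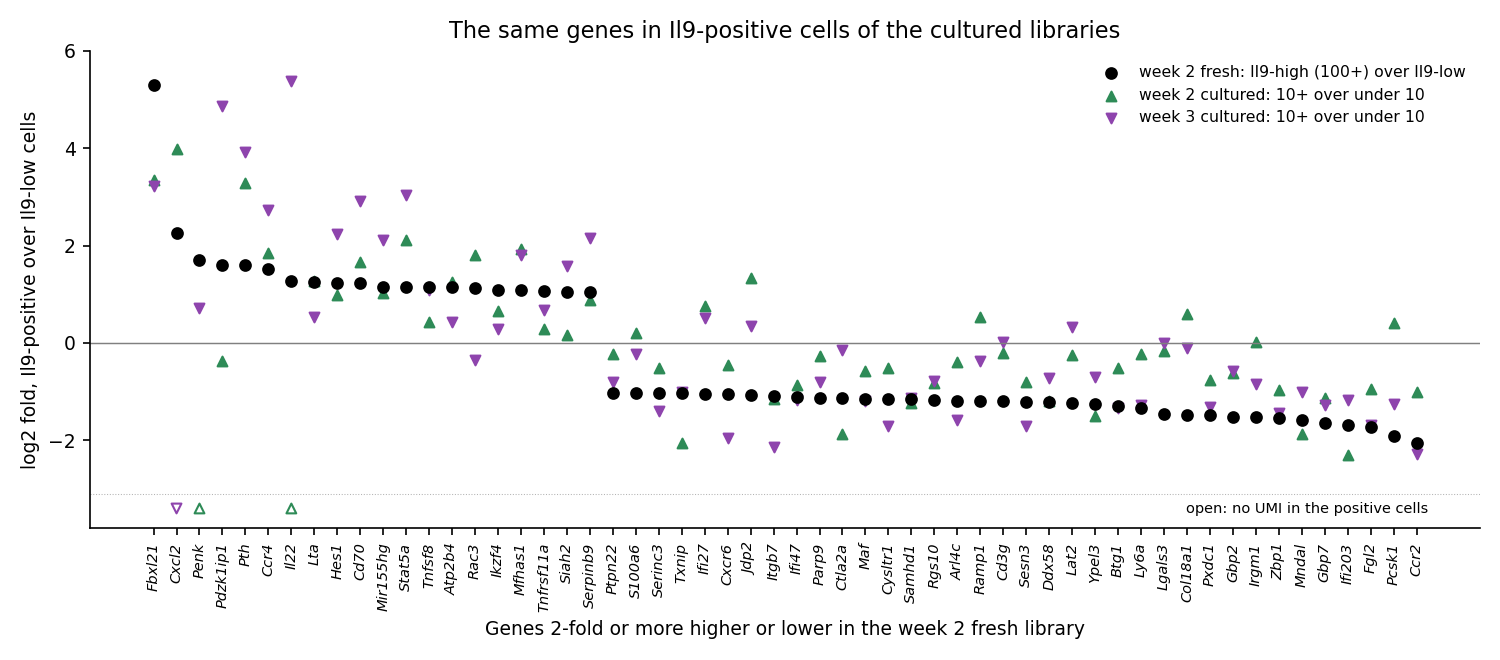
For each of the 20 higher and 36 lower genes (x), the log2 ratio (y) of IL-9-high to Il9-low cells in the fresh library (circles) and of Il9-positive to Il9-low cells in the week 2 and week 3 ta-activated libraries (triangles), whatever their level there; open triangles below the dotted line mark no UMI in the positive cells. Most triangles lie on the same side of 0 as the circle, with Ifi27 and Jdp2 on the other side in both libraries.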

How the data were processed

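The authors deposited raw counts of UMIs per gene and barcode for 5 10x Genomics 3′ libraries (1 per condition), without normalization, made with Cell Ranger on GRCm38, per the labels. The total counts were 33522126 (naïve), 33324823 and 9910201 (week 2 and 3 ta-non-activated), and 68919437 and 71126524 UMIs (week 2 and 3 ta-activated). The matrix headers name Cell Ranger 6.0.0 for the naïve library and 3.0.2 for the others. The 27726 genes common to the matrices were used.

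Members, lists and settings were chosen with earlier results of these data known. Counts were summed over the cells of a class, with Il9 left out, scaled to CPM, and compared at a mean of 20 CPM and a fold of 2. Intervals of levels and ratios are exact Poisson and exact conditional, those of shares Clopper-Pearson, all at 95% and for counting error only, since cells of 1 library are not replicates. Positions are from GENCODE M21. Named are the genes of the cytokine, ligand, chemokine and transcription factor lists past that level and fold, the most abundant members of these lists, and the 15 highest and 15 lowest ratios at a mean of 50 CPM. Others were chosen after their values were seen.

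Alternatives were other Il9 limits, scalings, floors, mitochondrial limits and depths, and cells without high doublet scores or without cycling cells. Depth strata, the cells of 25000 or more UMIs, the floor over all cells of a cultured library and a limit of 10 cells for the edgeR fit of the cultured libraries were added after seeing the data. Scripts were tested on simulated data. Python 3.11.15, scipy 1.17.1, scanpy 1.11.5, R 4.3.3, edgeR 4.0.16 and DESeq2 1.42.0 were used.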

Additional observations from a re-analysis of the deposited data

Results flagged for a closer look

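Among the 30 barcodes of the week 2 ta-non-activated library that the filters left out, 8 held Il9 at 100 or more UMIs per 10000. Ifi27, an interferon-induced gene, had a ratio of 0.485 between IL-9-high and Il9-low cells of that library, but ratios of 1.69 and 1.42 between Il9-positive and Il9-low cells of the week 2 and week 3 ta-activated libraries, and of 1.5 and 1.01 there among cells with 25000 or more UMIs. Jdp2, a repressor of AP-1, had a ratio of 0.479 in the fresh library and of 2.53 and 1.28 in the cultured ones, the last from 10 UMIs in the positive cells (interval 0.607 to 2.39). The difference between the libraries was not tested for either gene.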

How the results depend on the processing

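Of the 20 higher genes, 19 kept their direction in all 14 alternative settings and 13 stayed past a fold of 2 in all of them; of the 36 lower genes, these counts were 36 and 21. The exception was Penk, whose log2 ratio was -0.97 with an Il9 limit of 200 (6.22 against 12.2 CPM). The number of genes past a fold of 2 was 75 lower with means over cells, 49 higher and 100 lower at a floor of 5 CPM, and 869 and 2052 with no floor. Among cells with 200 or more Il13 UMIs per 10000 (41 members) it was 40 and 51. The cycling shares of members and Il9-low cells were 8.67% and 8.21% when thinned to 2000 UMIs and 42.3% and 27.1% unthinned; weighted over the depth strata the Il9-low share was 27.3%. With a limit of 50, 10 cells of the week 2 ta-activated library were past the rule, and with 200, 5 of week 3.

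The planned edgeR test over libraries not used by the rule was not run, since 1 library reached 20 Il9-positive cells. With a limit of 10 cells, set after seeing the data, both cultured libraries entered with the library as a replicate block and 1 residual degree of freedom: edgeR called 403 genes higher and 393 lower of 12224, among them Il22 and Cxcl2, which had no UMI in the positive cells of 1 library each. These calls were not used. They were 149 and 111 with DESeq2, 0 and 0 without the block (1028 genes at an unadjusted p under 0.05 in edgeR), 237 lower with an Il9 limit of 50, 135 and 170 with the week 2 fresh library added, and 220 and 161 with cells of 25000 or more UMIs. Leaving out 1 library left 1, so that fit was not run. With the floor of 20 CPM on the mean of the classes in place of all cells of a cultured library, 8 of the 20 higher genes were counted and 3 were past a fold of 2 in both libraries, but that floor admits genes through the positive cells.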
